A study of Mus musculus with 2 samples.

Results

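Respiratory complexes II, III and IV and their shuttle cytochrome c were followed in immature γδ T cells sorted by mitochondrial staining. The members were chosen by gene symbol: the 4 succinate dehydrogenase genes, every Uqcr gene with Cyc1, 11 widely expressed nuclear Cox genes, Cycs, and the mitochondrially encoded mt-Co1, mt-Co2, mt-Co3 and mt-Cytb. The rule found 29 of the 31053 genes in the deposited features. Of these, 4 belonged to complex II, 9 nuclear genes and mt-Cytb to complex III, 11 nuclear genes and 3 mitochondrial ones to complex IV, and 1 was Cycs.

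Thymic lobes of wild-type C57BL/6 mouse embryos were dissected on embryonic day 15 and cultured untreated for 2 days. CD24+ γδ T cells were stained with TMRE, a cationic dye whose uptake rises with the mitochondrial membrane potential. Sorting separated the most strongly stained cells (TMREhi) from weakly stained ones (TMRElo). A single droplet-based 5′ library was made from each, that is 1 library per group, so all cells shared strain, genotype, age and culture, and the groups differed by the dye gate. CD24 marks immature thymocytes, and the number of embryos behind each library is not given in the sources used here. With 1 library per group there was no test. Every interval below is an exact 95% interval that covers counting error only, not the spread between animals, cultures or sorts.

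Cells were retained with at least 500 detected genes and at most 10% of their unique molecular identifiers (UMIs, counted molecules) on mitochondrial genes, which left 317 TMREhi and 34 TMRElo cells with 2905666 and 105080 UMIs. The median depth was 7465 UMIs in TMREhi and 1679 in TMRElo, and the 5 deepest TMRElo cells held 44.0% of their library's UMIs. A count of 3 UMIs, taken as the floor, corresponded to 1.03 CPM (UMIs of a gene per 1000000 UMIs of the library) in TMREhi and 28.5 CPM in TMRElo. No cell barcode occurred in both libraries. All 8 γδ T cell markers reached 10 CPM on average, and 5 of them were lower in TMREhi. The list summed to 3802 CPM in TMREhi and 4768 CPM in TMRElo, a ratio of 0.797 (0.729 to 0.874), with Cd3d at 942 and 933 CPM, Cd3e at 606 and 1104 CPM and Trdc at 319 and 561 CPM. The sorted marker Cd24a had 438 UMIs (151 CPM) in TMREhi and 0 in TMRElo, which allows up to 28.5 CPM there. The transcripts of the retained TMRElo cells thus did not show the CD24+ gate. Among TMRElo barcodes with at least 500 genes and no mitochondrial limit, none of the 8 γδ markers, Cd24a included, was at 0. Of 7 markers of αβ-lineage thymocytes, 4 were at 0 in TMRElo. Myeloid markers gave 638 UMIs in TMREhi and 21 in TMRElo, with Lyz2 at 177 and 0 UMIs and Fcer1g at 146 and 200 CPM. The B cell marker Cd79b gave 71 and 2 UMIs, Epcam of epithelium 53 and 5 UMIs and Pecam1 of endothelium 119 and 5 UMIs. Erythroid markers were at 0 in both libraries, and mesenchymal markers gave 1 UMI in all.

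Complex II (succinate dehydrogenase) oxidises succinate in the citric acid cycle and passes the electrons to ubiquinone. Complex III takes them from ubiquinol to cytochrome c, and complex IV (cytochrome c oxidase) passes them from cytochrome c to oxygen. Complexes III and IV pump protons and so build the potential that TMRE reports, whereas complex II pumps none. Complex II is encoded wholly in the nucleus, complex III takes cytochrome b from the mitochondrial genome, and the catalytic core of complex IV is mitochondrially encoded while its outer subunits are nuclear. Developing γδ T cells rearrange different γ V segments in waves, and subsets with different V segments are known to differ in their later cytokine production and metabolism.

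Nuclear respiratory genes are known targets of the transcription factors NRF1 and GABP (an ETS family protein), so the promoters of the members were read beside their levels. RefSeq promoters on GRCm38.p6, 250 bases before to 50 after the start, were matched for 18 of the 25 nuclear members. The core of the NRF1 motif, with 1 free base in its first part, was found on either strand in 4 of the 18 (Cox6a1, Sdha, Sdhd and Uqcrc1), and in 5.19% of all 27025 genes of the table. Its perfectly palindromic form, a subset of these matches that is spelled by the first capitals of the Cox6a1 stretch below, was in 2 of the 18 (Cox6a1 and Uqcrc1) and in 1.07% of all genes. The ETS-type letters CCGGAAG were in 7 of the 18 (Cox6a1, Cox6b1, Cox8a, Sdhb, Sdhd, Uqcr11 and Uqcrh) and in 9.93% of all genes. The YY1-type letters AANATGGCG were in 0 of the 18 and in 2.76% of all genes. Stretches of 4 promoters follow, chosen because the same letters stood upstream of members whose point ratios between the libraries differed. They are 5′ to 3′ on the gene's strand, which was the minus strand for all 4, and capitals mark the NRF1 core on either strand in Cox6a1, Sdha and Sdhd and CCGGAAG in Uqcr11.
Cox6a1: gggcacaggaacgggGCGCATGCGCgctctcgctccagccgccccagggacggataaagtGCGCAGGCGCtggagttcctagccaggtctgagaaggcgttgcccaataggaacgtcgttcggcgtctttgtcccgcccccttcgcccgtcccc
Sdha: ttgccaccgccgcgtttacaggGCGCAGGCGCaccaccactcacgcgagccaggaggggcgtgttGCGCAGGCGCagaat
Sdhd: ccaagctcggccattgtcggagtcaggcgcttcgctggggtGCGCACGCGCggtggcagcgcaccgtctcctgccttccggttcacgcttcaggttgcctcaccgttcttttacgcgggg
Uqcr11: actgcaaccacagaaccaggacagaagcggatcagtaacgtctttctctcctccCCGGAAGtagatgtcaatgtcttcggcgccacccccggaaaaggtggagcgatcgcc
The stretches lie at chr5:115348982-115349135 for Cox6a1, chr13:74350281-74350360 for Sdha, chr9:50603850-50603969 for Sdhd and chr10:80406831-80406941 for Uqcr11. Sdha held a further match of the NRF1 core from 10 bases to 1 base before the start, which is not shown. The summed UMIs of the TMREhi library over those of the TMRElo library, each as CPM, gave a ratio of 1.79 for Cox6a1, 1.46 for Sdhd, 1.38 for Uqcrc1 and 0.850 for Sdha, so the point values of the 4 members with the NRF1 core stood on both sides of 1. The counting intervals of Sdhd, Uqcrc1 and Sdha each held 1 and so overlapped. A match of letters is a description and not a binding site.

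Among retained cells, the nuclear subunits of all 3 complexes took a larger share of the transcripts in TMREhi than in TMRElo. The mitochondrially encoded subunits took a smaller one. This mitochondrial direction turned in most ranges of matched ribosomal share, though most of those ranges held only 3 to 5 TMRElo barcodes. In retained cells the 24 nuclear subunits summed to 11357 CPM in TMREhi and 7594 CPM in TMRElo, a ratio of 1.5 (1.39 to 1.61, from 33000 and 798 UMIs). Complex II stood at 497 and 314 CPM, a ratio of 1.58 (1.12 to 2.31). The nuclear part of complex III stood at 3080 and 1989 CPM, a ratio of 1.55 (1.35 to 1.78). The nuclear part of complex IV stood at 7780 and 5291 CPM, a ratio of 1.47 (1.35 to 1.60). The 3 complexes thus had similar ratios with overlapping intervals, while the 4 mitochondrially encoded members went the other way, with 20022 CPM in TMREhi and 28141 CPM in TMRElo, a ratio of 0.711 (0.686 to 0.739).

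Of the 23 nuclear subunits with a mean of at least 100 CPM, 22 were higher in TMREhi, against 52.1% of the 1501 genes at that level. Past 1.5-fold, 8 of the 23 were higher, against 19.8% of genes, and 0 were lower, against 26.9%. The counting interval lay above 1 for 12 of the 23, against 22% of genes, and below 1 for none. By complex, 1 of 3 members of complex II, 2 of 9 of complex III and 5 of 11 of complex IV passed 1.5-fold. The 1 of complex II, Sdhb, was under 100 CPM in TMRElo and reached the mean only through TMREhi. Sdhd, not past 1.5-fold, also reached it only that way, and Sdha only through TMRElo. The median log2 ratio of all 24 nuclear subunits was 0.51, beside 0.04 for all 1501 genes. When the total was limited to UMIs outside ribosomal protein and mitochondrial genes, 13 of 23 passed 1.5-fold, against 26.7% of genes.

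**Figure D1:**
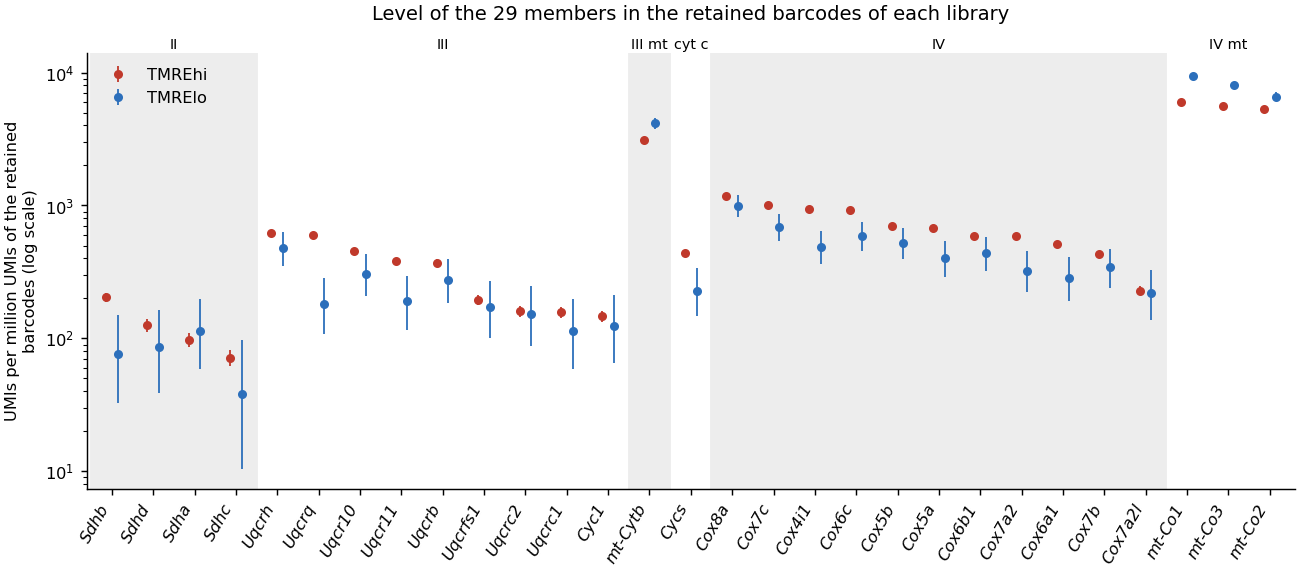
Levels of the 29 members in retained cells, in CPM on a log axis, with TMREhi and TMRElo as separate points and exact 95% counting intervals as bars. The nuclear members lie mostly higher in TMREhi, the exception being Sdha at 97.0 against 114 CPM, and the 4 mitochondrially encoded members lie higher in TMRElo.

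In complex II, Sdhb, the iron-sulfur subunit (chr4:140961203-140979193), stood at 203 CPM in TMREhi and 76.1 CPM in TMRElo, from 591 and 8 UMIs, a ratio of 2.67 (1.35 to 6.22). Sdhd, a membrane anchor, stood at 125 and 85.6 CPM, a ratio of 1.46 (0.762 to 3.22) from 364 and 9 UMIs. Sdha, the flavoprotein that binds succinate (chr13:74322254-74350280), stood at 97.0 and 114 CPM, a ratio of 0.850 (0.479 to 1.66) from 282 and 12 UMIs. The complex was therefore uneven, with Sdhb alone among its members clear of 1 by its interval and Sdha on the other side of 1 without clearing it. Sdhc, the second anchor, stood at 70.9 and 38.1 CPM, under the level at which folds were counted, and its 4 TMRElo UMIs left the interval at 0.716 to 6.90. Single cells showed the same thinness: 63 of 317 TMREhi cells and 18 of 34 TMRElo cells had no complex II UMI.

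In complex III, Uqcrq, a small subunit of the membrane part (chr11:53427922-53430831), had the highest ratio of the 23 counted nuclear subunits. It stood at 598 CPM in TMREhi and 181 CPM in TMRElo, from 1739 and 19 UMIs, a ratio of 3.31 (2.11 to 5.51). Uqcrh, the hinge protein of the cytochrome c1 region, had 616 and 476 CPM, a ratio of 1.29 (0.978 to 1.75). Uqcr10, another small subunit, had 455 and 305 CPM, a ratio of 1.49 (1.05 to 2.19). Uqcrq thus stood above both of these small neighbours by its point value, though its interval met that of Uqcr10. Uqcr11, named here after its values were seen because its promoter is printed above, had 380 and 190 CPM, a ratio of 2.00 (1.29 to 3.28). At the low end, Uqcrc2, a core protein, had 160 and 152 CPM, a ratio of 1.05 (0.640 to 1.85). The remaining members, Uqcrb, Uqcrfs1 (the Rieske iron-sulfur protein), Uqcrc1 and Cyc1 (cytochrome c1), were higher in TMREhi by ratios of 1.14 to 1.38, each with an interval that held 1.

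In complex IV, all 11 nuclear members had point ratios above 1. Cox4i1, a regulatory subunit present in most tissues (chr8:120668222-120674207), had the highest, with 940 CPM in TMREhi and 485 CPM in TMRElo, a ratio of 1.94 (1.47 to 2.61) from 2731 and 51 UMIs. Cox7c had 1009 and 685 CPM, a ratio of 1.47 (1.17 to 1.89). Cox8a, the member with most UMIs, had 1177 and 999 CPM, a ratio of 1.18 (0.970 to 1.44). The most counted subunit was thus among those whose interval held 1. Cox7a2l, also known as a factor that joins complexes III and IV into supercomplexes, had the lowest ratio, with 228 and 219 CPM, 1.04 (0.689 to 1.66). The other 7 members ranged from 1.26 for Cox7b to 1.81 for Cox7a2, and 8 of the 11 nuclear members in all had an interval above 1.

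Cycs, which encodes the electron carrier between complexes III and IV, had 440 CPM in TMREhi and 228 CPM in TMRElo, a ratio of 1.93 (1.29 to 3.02) from 1279 and 24 UMIs. It was detected in 228 of 317 TMREhi cells and 11 of 34 TMRElo cells. The deeper TMREhi cells detect more genes in general, so these cell counts were not read as a difference.

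The 4 mitochondrially encoded members were lower in TMREhi in retained cells, each with an interval below 1. The catalytic subunit mt-Co1 had 5993 CPM in TMREhi and 9364 CPM in TMRElo, a ratio of 0.640 (0.600 to 0.683). Its copper-binding partner mt-Co2 had 5345 and 6604 CPM, a ratio of 0.809 (0.750 to 0.875). The ratios of mt-Co3 (5595 and 8003 CPM) and mt-Cytb (3089 and 4168 CPM) were 0.699 (0.652 to 0.750) and 0.741 (0.673 to 0.818). The filter on mitochondrial UMIs acts on these genes directly, and without it, in 1025 TMREhi and 133 TMRElo barcodes with at least 500 genes, the ratio of their sum was 0.720 (0.707 to 0.733). With a stricter limit of 5% mitochondrial UMIs and at least 1000 genes, which left 223 and 9 cells, it was 0.995 (0.937 to 1.06), so the mitochondrial difference was not seen in those cells. As a share of the 13 mitochondrial mRNAs, which does not depend on the total, the 4 members together took 54.8% (54.5 to 55.1) in TMREhi and 55.9% (54.5 to 57.2) in TMRElo. Within that share mt-Co1 took 16.4% (16.2 to 16.6) in TMREhi and 18.6% (17.6 to 19.7) in TMRElo, and mt-Co2 took 14.6% and 13.1%, so the composition shifted slightly from mt-Co2 to mt-Co1 in TMRElo. Of the other 9 mitochondrial mRNAs, 8 were lower in TMREhi and mt-Atp8 was higher, at 2460 and 1827 CPM.

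Several other measures moved with the library. Cells in which ribosomal protein genes took at least 15% of UMIs made up 270 of the 317 retained TMREhi cells and 15 of the 34 retained TMRElo cells. G2/M genes summed to 10506 CPM in TMREhi and 5624 CPM in TMRElo, and 45 of the 50 measured ones were higher in TMREhi. In the 36 TMREhi and 6 TMRElo cells with under 0.1% of UMIs on G2/M genes the ratio was 0.989 (0.757 to 1.31) for complex III, 1.16 (0.971 to 1.39) for complex IV and 3.32 (1.10 to 16.4) for complex II, so the call for complexes III and IV was not kept there. The αβ-lineage list summed to 302 and 200 CPM, a ratio of 1.51 (0.982 to 2.45), with Dntt at 379 UMIs in TMREhi and 1 in TMRElo and Cd8a, on the other side, at 34.4 and 133 CPM, a ratio of 0.258 (0.147 to 0.490). Transcript length also moved with the ratio: genes whose principal transcript was under 800 nt had a median log2 ratio of 0.52 (187 genes at a mean level of 100 CPM or more, on UMIs outside ribosomal protein and mitochondrial genes) and the 12 nuclear members in that length range 0.77. From 800 to 1500 nt the medians were 0.48 for 411 genes and 0.57 for 7 members, and from 1500 nt -0.17 for 1512 genes and 0.40 for 5 members. In retained cells short genes as a group thus stood higher in TMREhi, with the members' medians above those of all genes in each length range. That did not hold throughout in barcodes with at least 15% of UMIs on ribosomal protein genes and no mitochondrial limit. There the 7 members of 800 to 1500 nt stood lower, at 0.16 against 0.24 for 434 genes. In the shorter and the longer range the members' medians were again the higher ones. Among retained cells of 1000 to 5000 UMIs, 72 and 22 cells, the ratios were 2.06 (1.07 to 4.44) for complex II, 1.30 (1.04 to 1.63) for complex III and 1.20 (1.05 to 1.38) for complex IV, and 0.954 (0.905 to 1.0) for the mitochondrial members. Without the 5 deepest cells of each library they were 2.64, 1.84, 1.76 and 0.573. The part of cell cycle, depth, transcript length and other cell types in the library ratios was not tested.

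Because the libraries differed so much in ribosomal share, they were compared within 2 classes of barcodes with at least 500 genes and no mitochondrial limit: a low class under 15% of UMIs on ribosomal protein genes (733 TMREhi and 117 TMRElo barcodes) and a high class at or above it (292 and 16). The nuclear subunits were higher in TMREhi in both classes, and the mitochondrial members were not lower in both. In the low class the 24 nuclear subunits summed to 3572 and 1874 CPM, a ratio of 1.91 (1.68 to 2.17), with 1.55 (1.06 to 2.34) for complex II, 1.65 (1.30 to 2.12) for complex III and 2.10 (1.78 to 2.48) for complex IV. In the high class the ratio of the 24 was 1.28 (1.19 to 1.37), with 1.51 (1.04 to 2.27), 1.34 (1.16 to 1.55) and 1.24 (1.14 to 1.35) for the 3 complexes. Complex IV was thus the one whose interval in the low class lay wholly above that in the high class, a difference that was not tested across libraries.

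In the low class 10 nuclear subunits reached 100 CPM and all 10 were higher in TMREhi, against 42% of 2072 genes, and 8 passed 1.5-fold, against 18.1%. The interval lay above 1 for 7 of the 10, against 17.1% of genes. All 7 complex IV members at that level passed 1.5-fold. Among them were Cox8a with 468 CPM in TMREhi and 207 CPM in TMRElo, a ratio of 2.25 (1.54 to 3.42), and Cox4i1 with 324 and 126 CPM, a ratio of 2.57 (1.59 to 4.45). Of the 10, Cox5b, Cox6a1, Cox7a2 and Uqcrh were under 100 CPM in TMRElo and reached the mean only through TMREhi. Cox7a2l, under that mean, was lower in TMREhi, at 64.8 and 88.9 CPM. Over all 24 nuclear subunits, with no minimum, the interval lay above 1 for 12 and held 1 for the other 12. In the high class 20 of 23 were higher, against 52.6% of 1404 genes, 5 passed 1.5-fold, against 15.5%, and the interval lay above 1 for 8, against 15.7%. Cox8a there had 1186 and 1209 CPM, a ratio of 0.981 (0.806 to 1.21), while Uqcrq had 602 and 225 CPM, a ratio of 2.67 (1.71 to 4.45), and Cox4i1 945 and 545 CPM, a ratio of 1.73 (1.30 to 2.37). Cox8a therefore differed between the libraries in the low class but not detectably in the high class, a contrast between the classes that was not tested, and Cox4i1 had an interval above 1 in both. The 5 deepest of the 16 TMRElo barcodes of the high class held 54.8% of its UMIs.

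The mitochondrial members summed to a ratio of 1.12 (1.10 to 1.15) in the low class and 0.870 (0.832 to 0.910) in the high class. The other 9 mitochondrial mRNAs turned as well, with 1.30 (1.28 to 1.33) and 0.874 (0.832 to 0.918), so the turn was not particular to the members. As a share of the 13 mitochondrial mRNAs, the members took 51.4% in TMREhi and 55.1% in TMRElo in the low class. In the low class mt-Co2 stood at 1.29 (1.24 to 1.35), mt-Co3 at 1.18 (1.14 to 1.23), mt-Cytb at 1.03 (0.977 to 1.08) and mt-Co1 at 0.999 (0.966 to 1.03). In the high class the same genes stood at 0.994, 0.866, 0.806 and 0.815. In both classes mt-Co2 had the highest ratio of the 4. The G2/M list had ratios of 3.70 in the low and 1.62 in the high class, and the αβ-lineage list 3.75 (1166 and 311 CPM) and 1.22 (245 and 201 CPM). Their part in these ratios was not tested.

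The classes did not make the libraries equal in ribosomal share, whose median in the low class was 5.26% in TMREhi and 2.58% in TMRElo, and in the high class 31.8% and 26.2%. The libraries were therefore also set side by side in narrower ranges of that share, a comparison added after the data were seen, with at least 3 barcodes of each library in 8 ranges. For the 24 nuclear subunits the ratio was 1.99 (1.56 to 2.56) under 3% ribosomal share (57 and 70 barcodes) and 1.49 (1.21 to 1.86) from 3 to 6% (400 and 38). It was 0.964 (0.687 to 1.40) from 6 to 9% (195 and 5), 1.13 (0.772 to 1.73) from 12 to 15% (24 and 3) and 1.03 (0.844 to 1.27) from 15 to 20% (25 and 3). It was 1.47 (1.19 to 1.83) from 20 to 25% (33 and 3), 1.22 (1.09 to 1.38) from 25 to 30% (52 and 5) and 1.39 (1.19 to 1.63) from 30 to 35% (105 and 4). The nuclear ratio thus kept its interval above 1 in 5 of the 8 ranges and held 1 in the 3 middle ones. Every range compared from 6% up, whichever way it fell, rested on 3 to 5 TMRElo barcodes. The mitochondrial members had an interval above 1 in the 6 ranges under 25%, from 1.08 (1.003 to 1.17) to 1.76 (1.59 to 1.95), held 1 from 25 to 30% at 0.962 (0.891 to 1.04) and were lower from 30 to 35% at 0.809 (0.735 to 0.893). At matched ribosomal share the mitochondrial members were therefore mostly higher in TMREhi, the opposite of their ratio in retained cells. That reading rests mostly on ranges with 3 to 5 TMRElo barcodes, since only those under 6% held more.

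**Figure D2:**
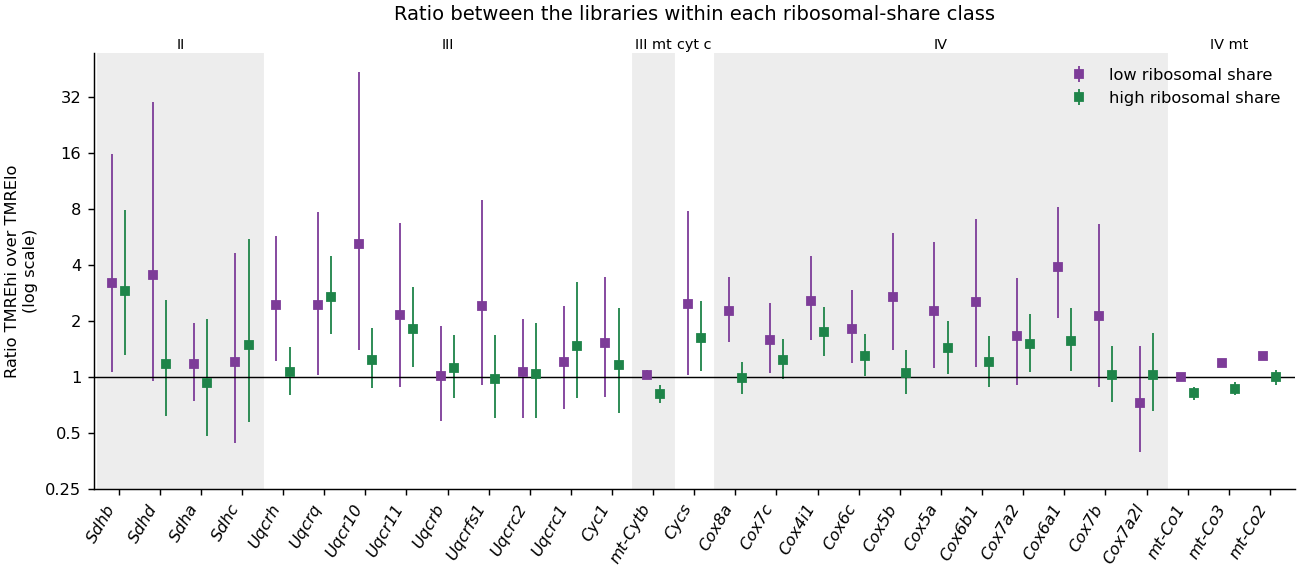
Ratio of TMREhi to TMRElo for each member within the low and the high ribosomal-share class, on a log axis with exact 95% counting intervals. Nuclear members lie mostly above 1 in both classes, and mt-Co3 passes from 1.18 in the low class to 0.866 in the high class.

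The balance between the 2 genomes was read as the UMIs of the mitochondrially encoded subunits per UMI of the nuclear subunits of the same complex, which needs no library total. For complex IV it was 2.18 (2.14 to 2.21) in retained TMREhi cells and 4.53 (4.13 to 4.98) in TMRElo. It was 2.23 (2.19 to 2.26) and 3.13 (2.84 to 3.46) in the high class, and 33.6 (32.4 to 34.8) and 61.8 (52.6 to 73.0) in the low class. For complex III it was 1.0 and 2.10 in retained cells, 1.04 and 1.73 in the high class, and 13.4 and 21.5 in the low class. The balance leaned further to the mitochondrial genome in TMRElo in each of these sets, and the gap between the classes was larger than that between the libraries.

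Within TMREhi, the ribosomal-share classes separated the nuclear from the mitochondrial members more sharply than the dye did. The class fixes the ribosomal part of the total, so each ratio was also taken on UMIs outside ribosomal protein and mitochondrial genes. Complex III nuclear transcripts stood at 878 CPM in the low class and 3092 CPM in the high class, 3.52-fold higher in the high class (3.31 to 3.75). Complex IV nuclear transcripts stood at 2361 and 7823 CPM, 3.31-fold higher in the high class. Complex II stood at 333 and 499 CPM, a low-over-high ratio of 0.667 (0.598 to 0.742), so it differed less than the other complexes. The mitochondrial members went the other way, at 91075 and 20656 CPM, 4.41-fold higher in the low class (4.37 to 4.45). On the narrower total the low-over-high ratios were 0.568 for complex II, 0.242 for complex III, 0.257 for complex IV and 3.76 for the mitochondrial members. In the low class 93.6% of the TMREhi barcodes were over 10% mitochondrial UMIs, against 7.53% in the high class.

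Of 22 nuclear subunits at a mean of 100 CPM or more, 19 were past 1.5-fold lower in the low class, against 33.7% of 1727 genes, and 1 was past it higher, against 45.1%. Of the 19, Uqcrq, Uqcr10, Cox7b, Uqcr11, Sdhb, Uqcrfs1 and Cox7a2l were under 100 CPM in the low class. They reached the mean only through the high class. Uqcrq differed most, at 90.7 CPM in the low and 602 CPM in the high class, 6.64-fold higher in the high class (5.51 to 8.06), followed by Uqcr10 at 5.91-fold and Cox7b at 5.54-fold. The core proteins Uqcrc1 and Uqcrc2 and cytochrome c1 (Cyc1) differed least among those lower in the low class, by 1.46-fold, 1.56-fold and 1.48-fold. The exception was Sdha, at 174 CPM in the low class and 98.9 CPM in the high class, a low-over-high ratio of 1.76 (1.47 to 2.10). Cycs stood at 91.4 and 441 CPM, 4.82-fold higher in the high class. Among the mitochondrial members mt-Co3, mt-Co1 and mt-Co2 had low-over-high ratios of 4.64, 4.55 and 4.44 and mt-Cytb 3.67 (3.58 to 3.76). Thus complex II held members on both sides of 1 and complex III members from 1.46-fold to 6.64-fold, while all 11 nuclear members of complex IV passed 1.5-fold in the same direction.

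TMRElo gave the same directions from far fewer UMIs. Complex II had a low-over-high ratio of 0.647 (0.372 to 1.13), complex III was 4.33-fold and complex IV 5.60-fold higher in the high class, and the mitochondrial members were 3.41-fold higher in the low class (3.26 to 3.58). Of 19 nuclear subunits at 100 CPM, 18 were past 1.5-fold lower in the low class, against 31.6% of 1879 genes. Most of the 18 reached that mean only through the high class. They include Uqcrc2, with 13 UMIs in each class and 1.60-fold (0.683 to 3.75) higher in the high class. Of the members under the mean, Uqcrc1 stood at 88.9 and 107 CPM, 1.20-fold higher in the high class (0.446 to 3.10). Sdhb, Sdhc, Sdhd and Cyc1, also under it, were past 1.5-fold lower in the low class by their point values, on few UMIs. Their UMIs in the low and the high class were 3 and 6 for Sdhb, 4 and 4 for Sdhc, 2 and 9 for Sdhd and 9 and 11 for Cyc1. The interval held 1 for Sdhb, Sdhc and Cyc1. Sdha again was the exception, with 20 UMIs in the low and 9 in the high class and a ratio of 1.39 (0.605 to 3.46). All 4 mitochondrial members passed 1.5-fold, against 50% of genes.

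Across the narrower ranges of ribosomal share in TMREhi the change was graded, with a different course for nuclear and mitochondrial members. Complex IV nuclear transcripts stood at 1561 CPM under 3% ribosomal share (57 barcodes), 1835 CPM from 3 to 6% (400), 2682 CPM from 6 to 9% (195) and 3410 CPM from 9 to 12% (57). They reached 4145 CPM from 12 to 15% (24), 5944 CPM from 15 to 20% (25) and 7723 CPM from 20 to 25% (33), and stayed between 7506 and 8084 CPM above that. The mitochondrial members stood at 94918, 94765 and 92512 CPM in the 3 ranges under 9%, and were lower above it, with 52986 CPM from 15 to 20%, 33057 CPM from 20 to 25% and 17493 CPM from 30 to 35%. Complex II had a narrower range, from 248 to 546 CPM. The limit of 15% therefore fell where the levels of complexes III and IV were still changing, in ranges that held few barcodes (24 below it and 25 above it). The barcodes just below it (12 to 15%) held 1203 CPM of complex III nuclear transcripts and those just above it (15 to 20%) 1993 CPM.

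**Figure D3:**
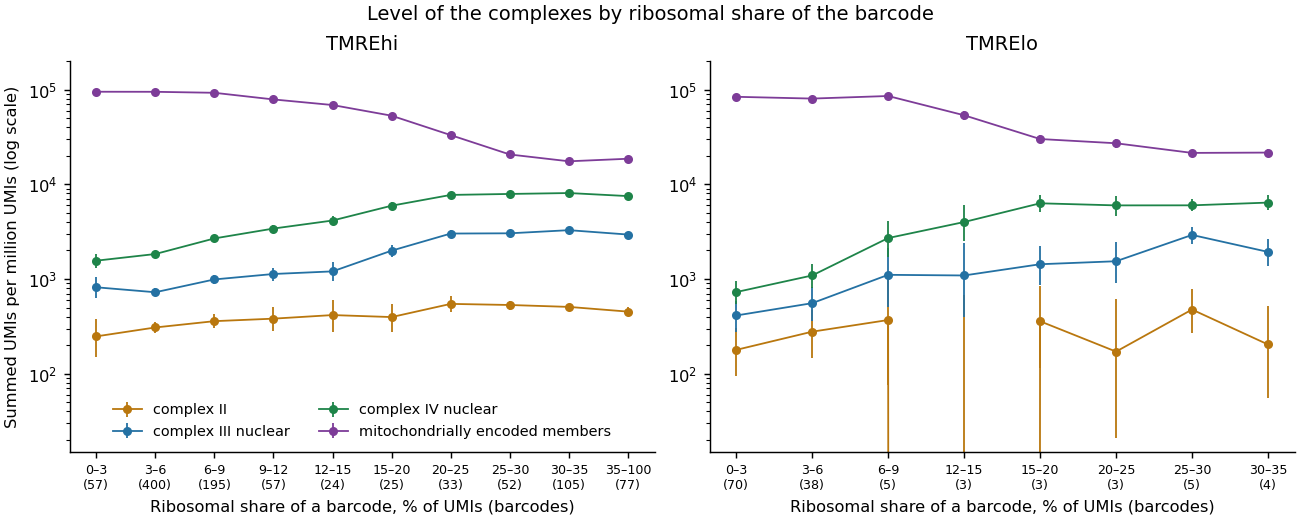
CPM of complex II, nuclear complex III, nuclear complex IV and the mitochondrially encoded members by the share of UMIs on ribosomal protein genes, for both libraries, on a log axis with exact 95% counting intervals; ranges with at least 3 barcodes are drawn and a sum of 0 is not drawn. In TMREhi nuclear complex IV climbs from 1561 CPM to 7723 CPM in the range of 20 to 25% and is nearly level above it, and the mitochondrial members are level under 9% and descend above it; the TMRElo points are less even and rest on 3 to 5 barcodes above 6%.

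Among nuclear genes the class difference followed transcript length. The mitochondrially encoded members were not part of that comparison. They were short as well, 684 to 1545 nt, but stood higher in the low class. The principal transcripts of the 25 nuclear members were short, 434 to 3171 nt with a median of 865 nt, beside a median of 2810 nt for the 2372 genes at 100 CPM or more outside ribosomal protein and mitochondrial genes. Across those genes in TMREhi, longer transcripts had higher low-over-high ratios, with a Spearman correlation of 0.77, and across the 25 members it was 0.50. Genes and members are not independent replicates, and all points come from the same 2 pools of barcodes. Among the 171 genes under 800 nt the median log2 low-over-high ratio was -1.98, and among the 12 members in that range it was -2.20. From 800 to 1500 nt the medians were -1.31 for 373 genes and -2.07 for 7 members, and from 1500 to 2500 nt -0.45 for 521 genes and -0.79 for 3 members. The shortest members thus stood close to other genes of their length, and members of middle length stood lower than theirs. Above 2500 nt Sdha (2900 nt, 0.58) stood near the median of 0.76 for 783 genes, while Cycs (3123 nt, -2.50) and Sdhc (3171 nt, -1.21) stood well under it. The part of transcript length in the class difference was not tested beyond these values.

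**Figure D4:**
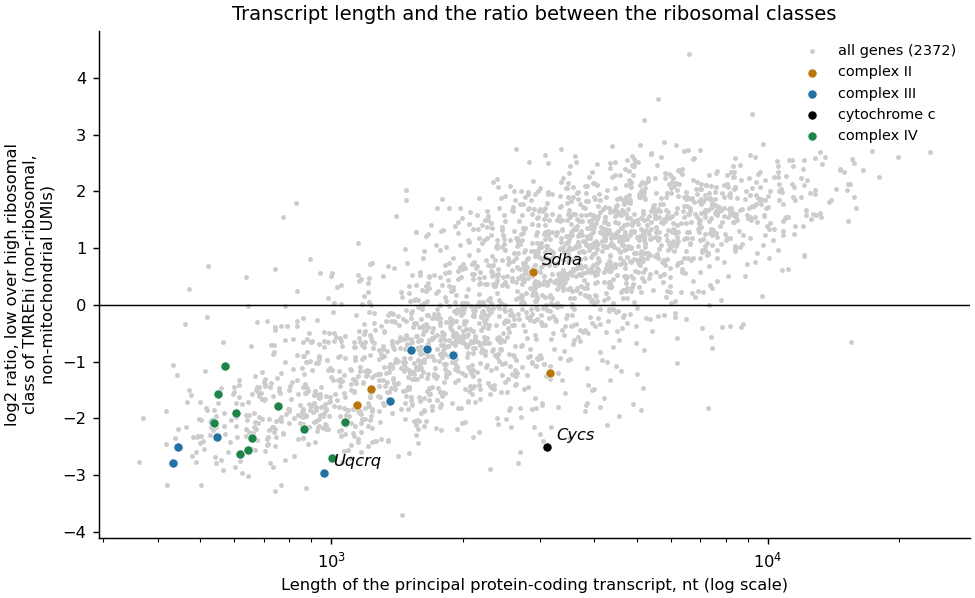
Length of the principal transcript (nt, log axis) against the log2 low-over-high ratio in TMREhi on UMIs outside ribosomal protein and mitochondrial genes, with 2372 genes in grey and the nuclear members in colour by complex. Most members lie at the short, negative end, with Sdha at 0.58 and Cycs at -2.50 at nearly the same length.

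Barcodes were then grouped by their leading γ V segment, the one with most UMIs, within TMREhi. In the high class, 41 barcodes led by Vγ6 (Tcrg-V6) had lower nuclear levels than 190 led by the Vγ1 family (Trgv2, Tcrg-V1 and Tcrg-V3). The 24 nuclear subunits summed to 9545 and 11602 CPM, a ratio of 0.823 (0.787 to 0.860). Complex II stood at 0.710 (0.560 to 0.890), complex III at 0.776 (0.710 to 0.848), complex IV at 0.848 (0.804 to 0.895) and Cycs at 0.609 (0.466 to 0.785). The sum of the mitochondrial members was similar, 20293 and 19800 CPM, a ratio of 1.02 (0.994 to 1.06). Vγ6 barcodes were shallower (median 4856 against 10362.5 UMIs) and held fewer G2/M UMIs (median 0.134% against 0.569%), and the part of either in the ratio was not tested.

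Of 22 nuclear subunits at 100 CPM in that comparison 18 were lower in Vγ6, where 42.6% of 1309 genes were higher, and 7 were past 1.5-fold lower, against 24.8% of genes. Uqcrq was the lowest, with 271 CPM in Vγ6 and 618 CPM in the Vγ1 family, a ratio of 0.439 (0.333 to 0.568), followed by Cox5a, a nuclear subunit of complex IV, with 393 and 699 CPM, a ratio of 0.563 (0.448 to 0.698). Uqcrh was on the other side, with 687 and 610 CPM, a ratio of 1.13 (0.945 to 1.33). Small subunits of the same complex thus differed in direction by their point values. Among the mitochondrial members mt-Co1 was higher in Vγ6, 6853 and 5748 CPM, a ratio of 1.19 (1.13 to 1.26), and mt-Cytb was lower, 2566 and 3141 CPM, a ratio of 0.817 (0.749 to 0.890).

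The Vγ6 difference was not seen in the low class, where the nuclear subunits of 56 Vγ6 and 191 Vγ1-family barcodes stood at 3707 and 3810 CPM, a ratio of 0.973 (0.860 to 1.10). There, 31 barcodes led by Vγ5 (Tcrg-V5) had the lowest nuclear sum, 2414 CPM, a ratio to the Vγ1 family of 0.634 (0.517 to 0.770), with 0.589 (0.453 to 0.754) for complex IV. Of 11 nuclear subunits at 100 CPM, 5 were past 1.5-fold lower in Vγ5, against 22.2% of 2017 genes, all of complex IV. Each of these 5 rested on at most 9 Vγ5 UMIs. The 74 barcodes led by Vγ4 (Tcrg-V4) stood at 3159 CPM, a ratio of 0.829 (0.746 to 0.920), with 3 of 12 subunits past 1.5-fold lower, against 6.66% of 1982 genes. The mitochondrial members of Vγ6, Vγ4 and Vγ5 barcodes stood at 0.982, 0.997 and 0.988 of the Vγ1 family in the low class. The nuclear sums of Vγ4 and Vγ5 thus differed from the Vγ1 family where the mitochondrial sums did not by more than counting error. The median depth was 1309 UMIs for Vγ5, 1338.5 for Vγ6, 1802.5 for Vγ4 and 1985 for the Vγ1 family, lowest and highest in the same groups as the nuclear sums, but with Vγ6 and Vγ4 in the other order. The median ribosomal share was 4.0% for Vγ5, 6.27% for Vγ6, 5.72% for Vγ4 and 5.91% for the Vγ1 family. The part of depth and of ribosomal share was not tested.

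In the high class 12 Vγ4 barcodes had a nuclear ratio to the Vγ1 family of 1.03 (0.980 to 1.09) and a mitochondrial one of 1.27 (1.22 to 1.31). Barcodes with no γ V UMI had 1.02 (0.961 to 1.08) and 1.54 (1.48 to 1.59) there, from 19 barcodes, and 0.949 (0.886 to 1.02) and 0.885 (0.873 to 0.897) in the low class, from 308. A Rag1 UMI, a mark of cells that are still rearranging receptor genes, was present in 31.6% and 51.6% of these, against 7.89% and 9.42% of Vγ1-family barcodes. The complex IV balance in the high class was 2.10 mitochondrial UMIs per nuclear UMI for the Vγ1 family, 2.56 for Vγ4, 2.63 for Vγ6 and 3.10 without a V segment. The interval of the Vγ1 family (2.06 to 2.14) lay below those of the other 3, whereas those of Vγ4 (2.38 to 2.75) and Vγ6 (2.48 to 2.80) overlapped.

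**Figure D5:**
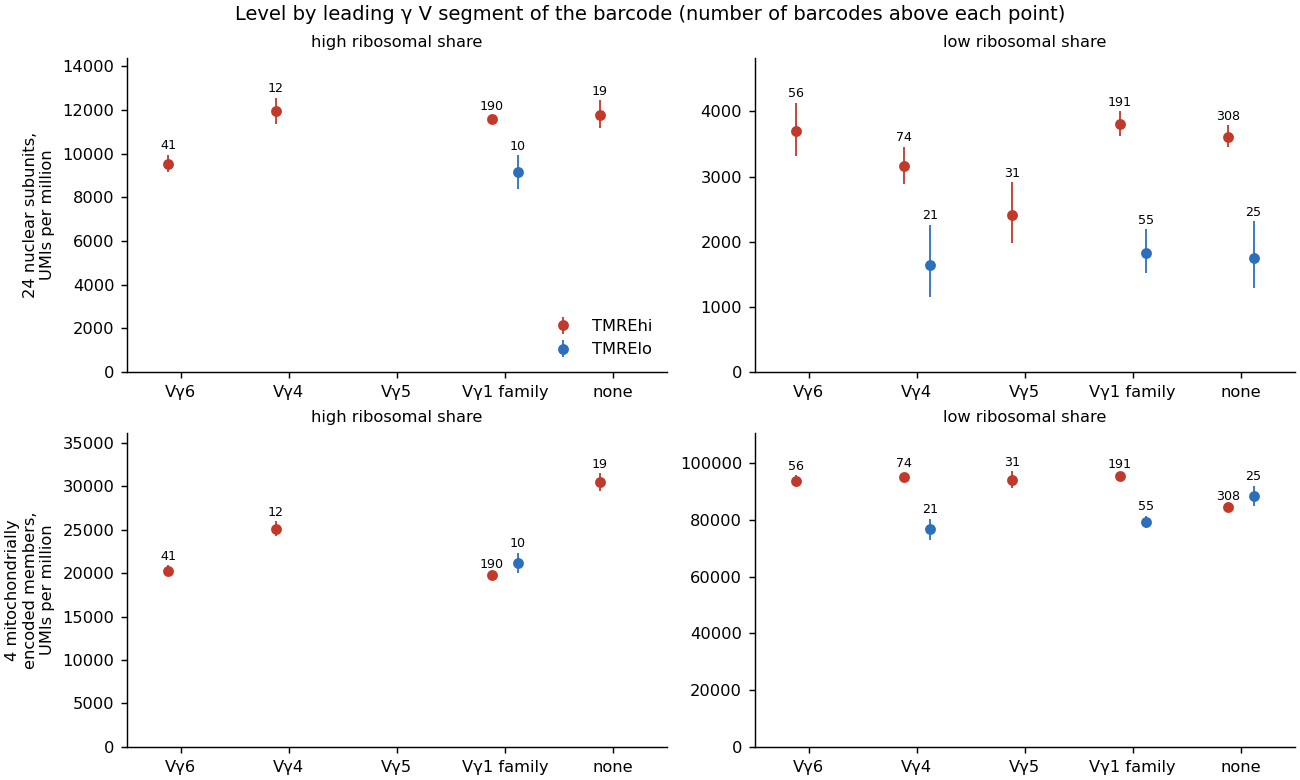
Summed CPM of the 24 nuclear subunits and of the 4 mitochondrially encoded members by leading γ V segment in each ribosomal-share class, for groups of at least 10 barcodes (numbers beside the points), with exact 95% counting intervals. In the high class of TMREhi, Vγ6 has the lowest nuclear sum (9545 CPM), and in the low class Vγ5 has it (2414 CPM).

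The library ratio could be taken within V segments for few groups, since TMRElo held 0 barcodes led by Vγ6 and 1 led by Vγ5. Among Vγ1-family barcodes of the high class (190 and 10) the nuclear ratio was 1.27 (1.17 to 1.38) and the mitochondrial one 0.935 (0.885 to 0.989). In that comparison 7 of 23 nuclear subunits were past 1.5-fold higher in TMREhi, against 17.5% of 1396 genes, with Uqcrq at 618 and 227 CPM, a ratio of 2.72 (1.61 to 4.99). Among Vγ1-family barcodes of the low class (191 and 55) the nuclear ratio was 2.08 (1.72 to 2.53), with 2.53 (1.97 to 3.31) for complex IV and 1.20 (1.17 to 1.24) for the mitochondrial members. There 8 of 13 passed 1.5-fold, against 19.9% of 2101 genes. For low-class Vγ4 barcodes (74 and 21) the nuclear ratio was 1.93 (1.38 to 2.79), and for those without a V segment (308 and 25) it was 2.07 (1.55 to 2.81). The nuclear subunits were thus higher in TMREhi in each of the 4 groups with at least 10 barcodes in both libraries. In the low class these groups also differed in median ribosomal share between TMREhi and TMRElo, with 5.91% and 2.52% for the Vγ1 family, 5.72% and 2.66% for Vγ4 and 4.70% and 2.13% without a V segment, and the part of this in the ratios was not tested.

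Neighbouring gene lists placed the members among other mitochondrial genes in retained cells, at a mean of at least 10 CPM and on log2(CPM + 1). At that level 38.1% of 7802 genes were higher in TMREhi and 18.8% were past 1.5-fold higher. Of the nuclear subunits of complex I, the other entry point for electrons, 33 of 36 were higher and 16 passed 1.5-fold, with Ndufa4 (now counted as a subunit of complex IV) at 696 and 238 CPM. Of the nuclear ATP synthase subunits, which make ATP from the proton gradient, 14 of 15 were higher and 5 passed, with Atp5g3 at 1307 and 942 CPM. The structural genes of all these complexes thus leaned the same way. Assembly factors did not lean as evenly by their counts, but they were thinly counted, and the level of 10 CPM lies under the TMRElo floor of 28.5 CPM. For complex IV, 10 of 21 were higher (5 past 1.5-fold, and 4 past it lower), with Higd1a at 259 and 133 CPM and Higd2a at 150 and 152 CPM. Of those past 1.5-fold, Cox10, Coa6 and Cmc1 (higher) and Sco2 and Taco1 (lower) had 0 to 3 TMRElo UMIs. For complexes II and III, 5 of 9 were higher (4 past 1.5-fold), with Uqcc2, needed for cytochrome b synthesis, at 187 and 57.1 CPM, a ratio of 3.27 (1.49 to 8.94) from 6 TMRElo UMIs. The others past 1.5-fold higher, Sdhaf1, Sdhaf4 and Bcs1l, had 1 or 2 TMRElo UMIs each. The contrast between assembly factors and structural genes is therefore uncertain. Of 11 regulators of mitochondrial biogenesis 3 were higher and 8 lower. Among the higher were Myc at 103 and 57.1 CPM (6 TMRElo UMIs) and Tfam, which packages and transcribes mitochondrial DNA, at 58.9 and 47.6 CPM (5 TMRElo UMIs). Both had an interval that held 1. Among the lower were Nrf1 at 31.0 and 57.1 CPM, a ratio of 0.542 (0.240 to 1.52), and Pprc1 at 9.64 and 47.6 CPM, a ratio of 0.203 (0.0772 to 0.672) from 5 TMRElo UMIs. The median log2 difference was 0.53 for complex I, 0.47 for ATP synthase and -0.56 for the regulators, beside -0.35 for all 7802 genes. Within the classes the median of the regulators was not under that of all genes. In the low class it was 0.19 with 8 of 12 higher, beside -0.06 and 47.2% of genes. In the high class it was -0.02 with 4 of 10 higher, beside -0.13 and 44.0% of genes. Tissue-restricted isoforms such as Cox6a2 and Cox7a1 of muscle summed to 57 UMIs in TMREhi and 1 in TMRElo, and none reached a mean of 10 CPM.

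Of the 25 nuclear members, 5 had an annotated pseudogene transcript at least 95% identical over at least 200 nt: Cycs and Uqcrb with 3 each, Cox7b and Cox6c with 2 each and Cox7a2l with 1. None of these copies was among the deposited features, so the counts of these 5 genes are uncertain to the extent that reads of a copy were assigned to them or discarded as ambiguous.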

How the data were processed

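The 2 deposited 10x matrices held whole-number UMI counts per gene and barcode as the authors deposited them, written by Cell Ranger 3.0.2 per the file headers. The submitters' processing notes name Cell Ranger 3.0 and mm10, and the annotation release is not given in the sources used here. No further normalization was applied to the deposited counts.

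Barcodes with at least 500 genes and at most 10% mitochondrial UMIs were retained, and for the class and V-segment comparisons the mitochondrial limit was dropped. UMIs were summed over barcodes per library and divided by the total of all UMIs, or by UMIs outside 85 ribosomal protein and 13 mitochondrial genes. Intervals are exact Poisson intervals for levels and Clopper-Pearson intervals, conditional on both counts, for ratios. A gene was counted past 1.5-fold where its mean over both groups reached 100 CPM. No test was made, with 1 library per group, and the interval code was tested on simulated data. Doublets were called with Scrublet in scanpy 1.11.5 and kept: it called 2 of 1025 TMREhi barcodes (0.195%, too few for the caller to be taken as having worked) and 24 of 133 TMRElo barcodes (18.0%), of which 4 were retained cells, and values without these calls were computed.

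Values in full were given for the 3 members with most UMIs and the highest and lowest ratio in each complex, and for the mitochondrial members. Any other member named was chosen after its values were seen. Members, gene lists and thresholds were chosen with earlier results of these data known. Transcript lengths are those of principal transcripts in GENCODE M21 on GRCm38, and genomic positions are on the same build. The software was scipy 1.17.1, numpy 2.4.6, matplotlib 3.10.9 and pandas 2.3.3 under Python 3.11.15.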

Additional observations from a re-analysis of the deposited data

Results flagged for a closer look

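In 4 cases the ratio of TMREhi to TMRElo for mitochondrially encoded members lay on opposite sides of 1 in different groups of barcodes, each with a counting interval clear of 1. These differences were not tested, since each group is 1 library against 1 library. For mt-Co3 the ratio was 1.18 (1.14 to 1.23) in the low ribosomal-share class and 0.866 (0.797 to 0.944) in the high class. For the 4 mitochondrially encoded members together it was 1.12 (1.10 to 1.15) in the low class and 0.870 (0.832 to 0.910) in the high class. Within the low class, it was 1.2 (1.17 to 1.24) for barcodes led by the Vγ1 family and 0.954 (0.916 to 0.995) for barcodes without a γ V UMI. It was likewise 1.24 (1.18 to 1.30) for barcodes led by Vγ4 against the same 0.954. Of the 308 low-class TMREhi barcodes without a γ V UMI 51.6% held a Rag1 UMI, and the part of this in the ratio was not tested. The sum of the other 9 mitochondrial mRNAs also lay on opposite sides of 1, at 1.30 in the low class and 0.874 in the high class.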

How the results depend on the processing

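No paired analysis was possible because each group is 1 library, numbered 1 by order alone, so that fewer than 2 numbers are shared. Complex II had a TMREhi-to-TMRElo ratio above 1 under all 14 alternatives. Among these, leaving out shared barcodes could change nothing, since 0 were shared. The ratios ran from 1.19 (0.808 to 1.83, an interval that holds 1, under the stricter filter described next) to 3.32. Moved values were 2.64 without the 5 deepest cells and 3.32 in cells under 0.1% G2/M UMIs (36 and 6 cells). Complexes III and IV gave 2.11 and 2.09 with all deposited barcodes, 1.98 and 1.97 without the mitochondrial limit, 1.35 and 1.30 under a stricter filter of 1000 genes and 5% mitochondrial UMIs (223 and 9 cells), 1.34 and 1.24 in the high class, 1.84 and 1.76 without the 5 deepest cells, 1.30 and 1.20 at 1000 to 5000 UMIs, and 1.93 and 1.82 as per-cell means. Complex IV also gave 2.10 in the low class and 1.63 on UMIs outside ribosomal protein and mitochondrial genes. In cells under 0.1% G2/M UMIs complex IV gave 1.16 (0.971 to 1.39) and complex III turned to 0.989 (0.757 to 1.31). The mitochondrial members (0.711) turned to 1.12 in the low class, and gave 0.666 with all barcodes, 0.995 under the stricter filter, 0.870 in the high class, 0.573 without the 5 deepest cells, 0.954 at 1000 to 5000 UMIs, 0.640 under 0.1% G2/M UMIs and 0.790 on the narrower total. The cause was not tested.

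The low-over-high ribosomal-share ratios in TMREhi kept their direction under all 7 alternatives. Limits of 10% and 20% gave 0.287 and 0.328 for complex IV and 4.03 and 4.51 for the mitochondrial members, and the limit of 20% gave 0.303 for complex III. The narrower total gave 0.568, 0.242, 0.257 and 3.76 for complexes II, III, IV and the mitochondrial members, and at most 10% mitochondrial UMIs (47 and 270 barcodes) gave 0.496, 0.245, 0.230 and 2.42. The mitochondrial members also gave 4.75 in barcodes with a γ V and no Rag1 UMI and 3.59 as per-cell means. For Vγ6 against the Vγ1 family in the high class the narrower total gave 0.865 (nuclear) and 1.08 (mitochondrial), and per-cell means gave 0.971 (mitochondrial). In the low class at most 10% mitochondrial UMIs left 1 and 3 barcodes, with 1.40 and 0.919. The 9 nuclear members past 1.5-fold, Cycs included, became 10 with a minimum of 10 CPM and 10 with none, beside 19.8%, 19.3% and 34.3% of all genes past that fold, so the count with no minimum stands near its background. Depth limits TMRElo most: its 34 retained cells hold 33 complex II UMIs.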
